A study of Arabidopsis thaliana with 6 samples.

Results

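The PLETHORA and AINTEGUMENTA-like factors are 8 transcription factors of the AP2 family in Arabidopsis thaliana, namely PLT1 (AT3G20840), PLT2 (AT1G51190), BBM (AT5G17430), PLT3 (AT5G10510), PLT7 (AT5G65510), PLT5 (AT5G57390), AIL1 (AT1G72570) and ANT (AT4G37750). They were found by their gene identifiers in a comparison of gene expression with 33233 gene lines, where each of the 8 had 1 line of its own. The RNA came from the root apex of wild-type Col-0 seedlings aged 8 days, grown in constant light. Zone II was a 1.5 mm section with elongating cells and root hairs, and zone I was the apical 0.5 mm with the root cap and the dividing cells. Each zone had 3 libraries of total RNA. The labels do not say how many roots went into a library, or whether the 3 libraries of a zone came from separate cultures.

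The deposited comparison sets a condition called experiment against one called control, and no label ties either name to a zone. Directions are therefore those of the experiment condition relative to the control condition. The comparison holds a log2 fold change of experiment over control, a p-value and a q-value (a p-value adjusted for the number of tests) for each gene. These came from Cuffdiff, a program that tests differences between RNA-seq conditions. A gene was called at a q under 0.01. No value per library was used here, so no SD stands beside a fold change and the depth of the libraries is unknown. As a check of the tissue, 4 of 6 tested markers of dividing cells and 4 of 5 tested root cap markers were called lower on the experiment side in the authors' deposited table. Of 6 tested root hair markers, 4 were called higher and 1, the early hair regulator RHD6, was called lower in the authors' deposited table. No marker of dividing cells or the root cap was called higher, and these counts were not used to assign the zones. For comparison, 21.2% of all tested gene lines were called lower and 22.3% higher.

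PLETHORA proteins keep the root stem cell niche and the meristem in place. They form a gradient along the root, highest at the niche, where a high level goes with stem cell identity, a lower level with cell division and a still lower level with differentiation. Their genes act downstream of auxin, and the secreted RGF peptides shape the spread of the proteins. PLT1, PLT2, BBM and PLT3 act together in the primary root. PLT3, PLT5 and PLT7 are known for the outgrowth of lateral roots and for the arrangement of leaves, and ANT for the growth of floral organs and ovules. Each protein binds DNA through a pair of AP2 repeats.

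The AP2 repeats are the part that all 8 genes share, and the stretch that encodes the start of the second repeat is shown for all 8, read from the RefSeq genome TAIR10.1 in the annotated transcript with the longest coding sequence. Each stretch holds 60 coding bases, 5′ to 3′. Capitals mark the 38 bases that are the same in all 8 genes. The coordinates run from the first to the last of these bases on the chromosome, introns included where one falls inside.
PLT1, chr3:7302165-7302321, plus strand: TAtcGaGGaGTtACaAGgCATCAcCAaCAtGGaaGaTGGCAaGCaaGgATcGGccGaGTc
PLT2, chr1:18979213-18979272, plus strand: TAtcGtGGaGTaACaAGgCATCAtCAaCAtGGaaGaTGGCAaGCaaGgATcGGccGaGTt
BBM, chr5:5743383-5743572, minus strand: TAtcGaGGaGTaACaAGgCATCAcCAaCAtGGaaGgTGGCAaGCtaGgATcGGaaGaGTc
PLT3, chr5:3319279-3319338, plus strand: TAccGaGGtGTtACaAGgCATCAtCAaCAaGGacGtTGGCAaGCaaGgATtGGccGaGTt
PLT7, chr5:26188836-26188895, plus strand: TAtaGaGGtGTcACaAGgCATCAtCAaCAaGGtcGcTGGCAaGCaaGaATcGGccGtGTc
PLT5, chr5:23254288-23254444, minus strand: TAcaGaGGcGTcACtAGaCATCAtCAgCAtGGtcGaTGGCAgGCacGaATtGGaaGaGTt
AIL1, chr1:27333245-27333405, plus strand: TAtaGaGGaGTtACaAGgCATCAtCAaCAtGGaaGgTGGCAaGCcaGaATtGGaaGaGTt
ANT, chr4:17741504-17741649, plus strand: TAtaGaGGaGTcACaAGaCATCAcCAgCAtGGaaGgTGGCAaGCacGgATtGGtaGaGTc
Of the 22 bases that vary, 18 are at position 3 of a codon, 4 at position 1 and none at position 2.

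The 8 coding sequences ran from 415 codons in AIL1 to 604 in PLT3, with 574 in PLT1 and 568 in PLT2. Across the 28 pairs of genes, 79.0% to 97.5% of aligned residues were identical in the region that starts at the first AP2 repeat and ends 60 residues into the second, with a median of 87.3%. In the PLT3 transcript used here the repeats start after 268 and 390 residues, against 181 and 283 in PLT1. The region of PLT3 is therefore longer, and residues set against a gap do not count as aligned. Over the whole proteins the range of identity was 42.5% to 85.2%, with a median of 52.4%. PLT1 and PLT2 were the closest pair, at 85.2% over the whole protein, and PLT3 and PLT7 came next, at 77.9%. The likeness of proteins did not extend to long identical stretches of RNA. The longest run of bases shared by any pair of transcripts was 38 bases, between PLT1 and PLT2, and the reads were 150 bases long. A coding exon of only 9 bases stood in 7 of these 8 transcripts, for example tttacttgg in PLT1, and tttatctgg in both BBM and ANT. The PLT3 transcript with the longest coding sequence lacked it, while 5 of the 7 annotated PLT3 transcripts had a short coding exon. The length of that exon was not recorded here.

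**Figure D1:**
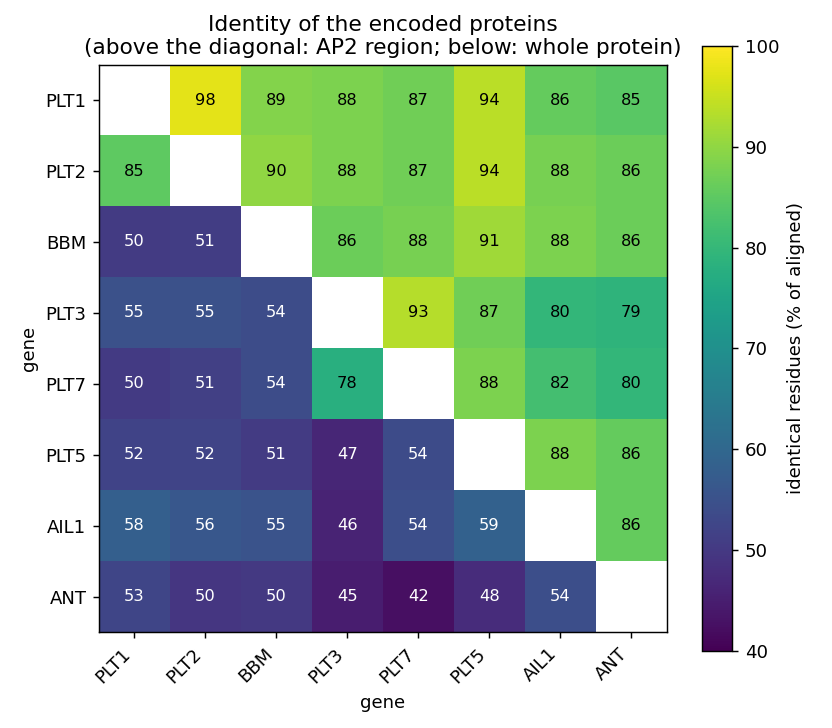
Percentage of aligned residues that are identical between the proteins encoded by each pair of the 8 genes, in the AP2 region (above the diagonal) and over the whole protein (below it). Below the diagonal the highest values are those of PLT1 with PLT2 (85.2%) and PLT3 with PLT7 (77.9%), and above it every pair is at 79.0% or more, with PLT1 and PLT2 the highest at 97.5%.

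Of the 8 genes, 5 were tested, and Cuffdiff called 3 of these lower in the experiment condition, with no member called higher. Among all 18050 tested gene lines, 21.2% were called lower and 22.3% higher. The called genes were PLT1, PLT2 and BBM, which act in the root stem cell niche, and none of them had a finite fold change. PLT3, also a factor of the primary root, was lower and PLT5 higher, but neither passed the test. PLT7, AIL1 and ANT were not tested. The median log2 fold change over all tested lines was -0.03, and the median of the 5 tested members lay below any finite value, since 3 of the 5 were listed at 0 in the experiment condition.

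PLT1, PLT2 and BBM shared 1 pattern. In each of them the experiment side was 0, and the control side was not, so that the log2 fold change in the authors' deposited table was minus infinity. Each had p = 5e-05 and q = 0.000177 in the authors' deposited table. That p is the smallest that this Cuffdiff run gave and 5093 gene lines shared it, so the test does not rank these genes. A zero of this kind was usually called. Of 192 tested gene lines listed at 0 in the experiment condition 157 passed, which is 81.8%, and the calls of these 3 genes are to be read against that share. Markers of dividing cells (4 of 6) and of the root cap (4 of 5) were called lower in the same comparison, against 21.2% of all tested lines. Their part in the values of PLT1, PLT2 and BBM was not tested. In bulk tissue, fewer cells that express a gene and less RNA per cell cannot be told apart. An exact 0 can also be an estimate that failed, so these genes are said to be listed at 0 and not to be absent.

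The 3 loci lie on different chromosomes. In TAIR10 coordinates of the authors' deposited table, PLT1 stands on chromosome 3 from 7300427 to 7303710, PLT2 on chromosome 1 from 18977082 to 18980624 and BBM on chromosome 5 from 5742542 to 5745568. Each is a protein-coding gene with 9 exons in the reference annotation, and no other annotated gene overlaps it on either strand.

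PLT3 had a log2 fold change of -2.94 in the authors' deposited table, with a test statistic of -2.86, p = 0.137 and q = 0.193. A large fold without a call was common. Of 1170 tested lines with a finite log2 of -2.5 or less, 556 did not pass. The PLT3 locus lies on chromosome 5 from 3315529 to 3320202 in the authors' deposited table. In the reference annotation the end of PLT3 overlaps its neighbour AT5G10520, on the opposite strand, by 454 bases. The deposited gene lines do not overlap, since that of AT5G10520 runs from 3320370 to 3322910 in the authors' deposited table. AT5G10520 was called higher, with a log2 fold change of 5.82 and q = 0.000177 in the authors' deposited table. The library method keeps no strand, so that reads in the annotated overlap cannot be assigned to either gene. The part of the neighbour in the PLT3 value was not tested.

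PLT5, a factor of lateral root growth and of embryos, was the 1 tested member above 0. Its log2 fold change was 2.05 in the authors' deposited table, with a test statistic of 1.20, p = 0.0754 and q = 0.117. It lies on chromosome 5 from 23253459 to 23256450, as the authors' deposited table gives it, and no annotated gene overlaps it. Without a spread between libraries, no interval can be set on the folds of PLT3 or PLT5, and a q that misses the threshold does not show that they were alike in both conditions.

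Cuffdiff marked the other 3 members as not tested. PLT7, the closest relative of PLT3, had an experiment side above 0 and a control side of 0, and so had ANT. Of the 15183 untested lines, 1317 had this entry. AIL1 had its fold change entered as 0, as did 10758 untested lines, which gives no direction. The loci of PLT7 (chromosome 5, from 26185829 to 26189413), AIL1 (chromosome 1, from 27331381 to 27333698) and ANT (chromosome 4, from 17739514 to 17742401) are given here from the authors' deposited table. None of the 3 genes overlaps another annotated gene.

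**Figure D2:**
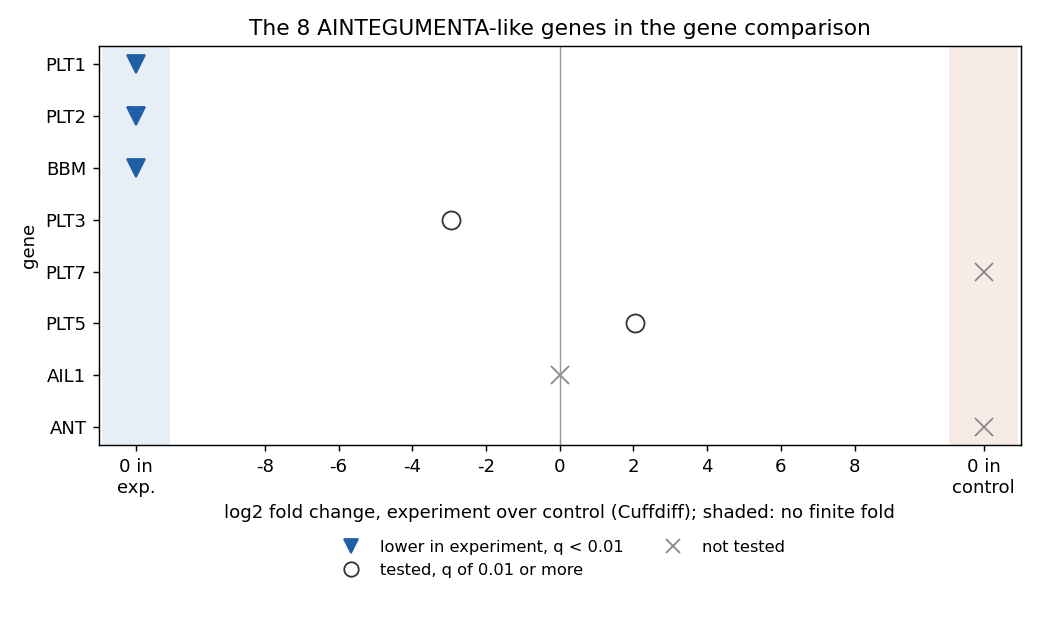
Log2 fold change of experiment over control for the 8 genes in the gene comparison, 1 symbol per gene, with genes that have no finite fold placed in the shaded bands (left: listed at 0 in experiment, right: listed at 0 in control). PLT1, PLT2 and BBM sit in the left band and were called, PLT3 (-2.94) and PLT5 (2.05) did not pass, and the crosses for PLT7, AIL1 and ANT mark genes with no test, where the cross of AIL1 at 0 is an entry and not a measured equality.

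The isoform comparison split the same genes into assembled transcripts and gave fewer calls. The 8 genes had 19 isoform lines, of which 12 were tested, 1 was called lower and none higher. Among all 32807 tested isoform lines, 6.9% were called lower and 9.93% higher. Of the 12 tested lines 10 were below 0 and 2 above. Those below 0 were 4 lines of PLT1, 3 of PLT3, 2 of BBM and 1 of PLT2, so they do not stand for separate genes. The median log2 fold change over all tested isoform lines was 0.15. Of 3667 genes called lower that had isoform lines, 51.2% had an isoform called lower, and of the 151 that were also listed at 0 in the experiment condition, 59.6% had one.

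PLT1 had 4 isoform lines and all 4 were listed at 0 in the experiment condition. The first of them passed, and the authors' deposited table gave it q = 0.000428. The others had q = 0.0471, 0.222 and 0.0650 in the authors' deposited table. Of all 574 tested isoform lines listed at 0 in the experiment condition, 24.4% were called. RefSeq annotates 1 transcript of PLT1, and the structures of the 4 assembled ones are not used here.

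BBM differed between the comparisons. Its gene line was listed at 0 in the experiment condition, but its first isoform line had a finite log2 fold change of -5.70, so that its experiment side was above 0. That line had p = 0.187 and q = 0.371 in the authors' deposited table, and the second isoform line, listed at 0 in the experiment condition, had q = 0.253. Neither passed, and both lay below 0. The isoform locus, from 5742141 to 5745582 in the authors' deposited table, is longer at both ends than the gene locus.

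PLT2 had 2 isoform lines that pointed in opposite directions. The second had a locus identifier of its own, was listed at 0 in the experiment condition and did not pass, for q was 0.293 in the authors' deposited table. The first carried the name of PLT2 but the locus identifier of the next gene, AT1G51200, with which it was grouped. Its log2 fold change was 1.42 in the authors' deposited table (q = 0.270). The gene line of AT1G51200 also lay above 0, at 0.46 in the authors' deposited table, with q = 0.0328. Both PLT2 lines share 1 long interval, from 18948370 to 18986653 on chromosome 1 in the authors' deposited table, which also covers AT1G51200. The fold of the first line therefore cannot be assigned to PLT2 alone.

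PLT3 had 6 isoform lines, of which 3 were tested and none passed. Their log2 fold changes were -3.32, -2.98 and -2.83 in the authors' deposited table, with q = 0.252, 0.419 and 0.454. All 3 were close to the value of the gene line. The isoform interval, from 3315312 to 3323029 in the authors' deposited table, takes in the neighbour AT5G10520. PLT5 had 1 isoform line, at 1.40 in the authors' deposited table (q = 0.218), against 2.05 for the gene. The isoform lines of PLT7 and ANT were listed at 0 in the control condition with no test, and that of AIL1 was entered as 0.

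**Figure D3:**
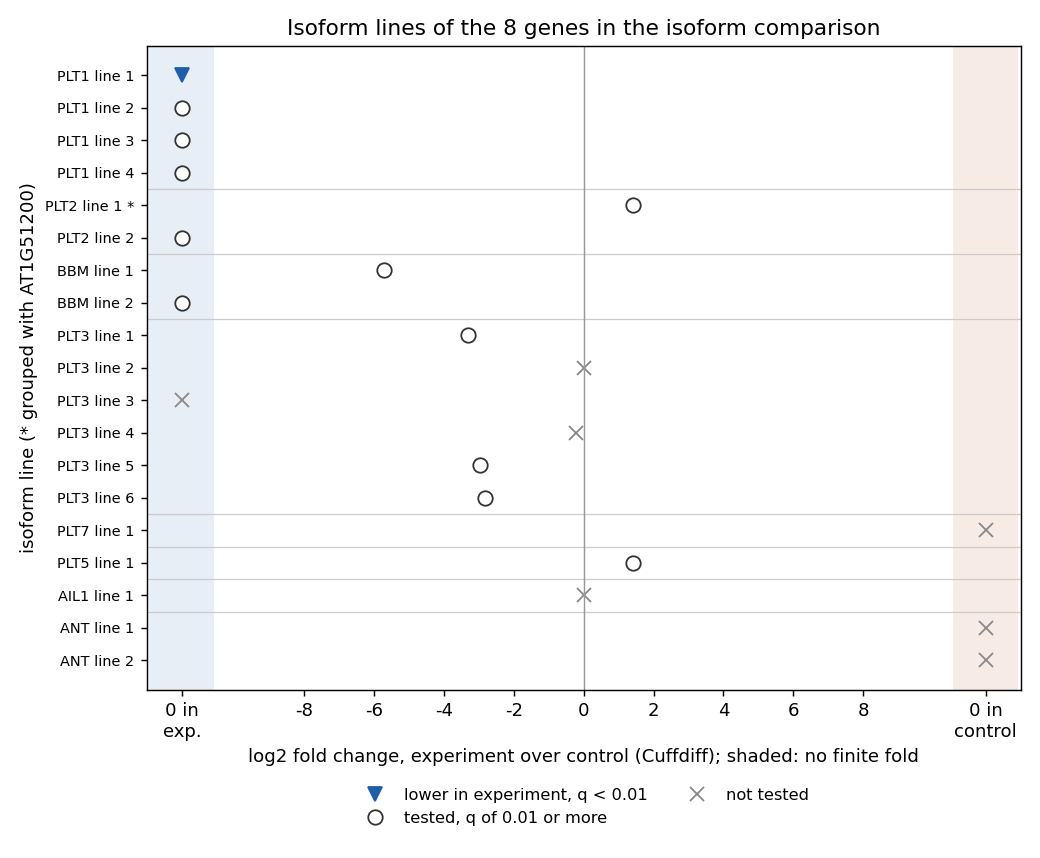
Log2 fold change of experiment over control for the 19 isoform lines of the 8 genes, in blocks by gene, with lines that have no finite fold in the shaded bands. All 4 PLT1 lines lie in the left band and 1 of them was called, the BBM lines differ in that 1 has a finite fold (-5.70), and the starred PLT2 line (1.42) is the one grouped with AT1G51200.

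The other genes of the AP2 subfamily moved both ways. Of 10 further genes of the subfamily, 8 were tested, 2 were called lower and 4 higher, against 21.2% and 22.3% of all tested lines. The median log2 fold change of the 8 was 0.82. WRI1, an activator of fatty acid synthesis in seeds, was called lower at -4.99, and its relative WRI3 at -1.61, and the authors' deposited table gave q = 0.000177 for both. The risers included flowering repressors that are targets of the microRNA miR172, SMZ at 2.61 (q = 0.00876) and TOE1 at 1.81 (q = 0.000177) in the authors' deposited table. TOE2 rose at 1.27 and AP2, a floral identity factor, at 0.98 in the authors' deposited table. In the authors' deposited table AT2G41710 (-1.27, q = 0.0288) and WRI4 (0.67, q = 0.496) did not pass.

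Genes of the RGF pathway, which acts on PLETHORA protein from outside the cell, were lower where they passed. Of 10 genes, 9 had a line of their own and 8 of these were tested, with 6 called lower and none higher. Over all tested gene lines the shares were 21.2% lower and 22.3% higher. The median of the 8 was -1.71. Among the receptor kinases, RGI1 was at -6.39, RGI2 at -2.06, RGI4 at -1.36 and RGI5 at -0.70, all called in the authors' deposited table. RGI3, the remaining receptor, did not pass (0.44, q = 0.0807 in the authors' deposited table). The peptide genes RGF2 and RGF3 were called, and both gene lines were listed at 0 in the experiment condition. As with BBM, the first isoform line of RGF2 had a finite log2 fold change, -5.38 in the authors' deposited table (q = 0.289). The other RGF2 isoform line, listed at 0 in the experiment condition, did not pass either (q = 0.278). Every isoform line of RGF3 was listed at 0 in the experiment condition and called lower. TPST, the enzyme that adds sulfate to the RGF peptides, stood at -0.27 in the authors' deposited table, with q = 0.504. RGF1, listed at 0 in the experiment condition, was not tested at gene level. Its first isoform line, also listed at 0 there, was tested and did not pass (q = 0.0231 in the authors' deposited table). The transcription factor RITF1 had 2 lines at 1 locus, neither called, with q = 0.175 and 0.0894 in the authors' deposited table, and it was left out of the counts.

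Auxin response genes upstream of the PLETHORA genes were split. All 6 were tested, 2 were called lower and 3 higher, against 21.2% and 22.3% of all tested lines, and the median was 1.25. MP, the auxin response factor of the embryonic root, was lower at -2.35 (q = 0.000338 in the authors' deposited table), and so was the auxin receptor gene TIR1, at -1.06. ARF19 (1.18), and the repressors IAA14 (2.14) and IAA12 (1.91), were called higher in the authors' deposited table. ARF7, which acts with ARF19 in lateral root formation, did not pass (1.31, q = 0.0665 in the authors' deposited table).

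Of 8 stem cell niche partners 7 were tested, with 3 called lower and 1 higher, against 21.2% and 22.3% of all tested lines. Their median was -0.63. SCZ, a heat shock factor family gene of the niche, was the lowest at -3.44, and the retinoblastoma homologue RBR1 was at -0.92 (q = 0.00479), both in the authors' deposited table. TCP20, a partner protein of PLETHORA factors, was the 1 riser, at 1.11 in the authors' deposited table, with q = 0.00233. MGP was called lower and JKD was not, and SCR, a factor of the niche and the endodermis, did not pass (-0.53, q = 0.0385 in the authors' deposited table). WOX5, the marker gene of the quiescent centre, was not tested.

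Among chromatin factors and antagonists of the PLETHORA genes, 6 of 7 had a line of their own and were tested. Of these 1 was called lower and 2 higher, against 21.2% and 22.3% of all tested lines, and the median was -0.53. AN3, a coactivator reported to hold back PLT1 expression, was the gene called lower. The HD-ZIP III factors PHV (1.64) and REV (1.54), which oppose PLETHORA genes in the embryo, were called higher in the authors' deposited table. The direction of REV differed in the isoform comparison, where the first of its 4 isoform lines was called lower (-1.63, q = 0.00434 in the authors' deposited table) and the other lines, 1 of them above 0 (6.45, q = 0.354), did not pass. By the authors' deposited table, the GATA factor HAN (-7.18, q = 0.305) and the histone acetyltransferase GCN5 (-1.15, q = 0.0296) did not pass. ADA2B shares its line with a neighbouring gene and was left out.

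Reported targets of the factors also went both ways. Of 17 genes 9 were tested, with 3 called lower and 3 higher, against 21.2% and 22.3% of all tested lines. Their median was -0.77. The falls included those of the auxin exporter PIN2, at -3.04, and the auxin biosynthesis gene TAA1, at -1.84, in the authors' deposited table. The rises were those of the auxin biosynthesis gene YUC8 (2.38) and the exporters PIN7 (0.99) and PIN3 (0.97) in the authors' deposited table. Neither YUC3 (-0.77, q = 0.0146) nor the cyclin CYCD3;1 (-1.07, q = 0.0193) passed in the authors' deposited table. The embryo regulators LEC1, LEC2, FUS3, ABI3 and AGL15, which BBM acts on in embryos, were not tested, and nor were CUC2, YUC1 and YUC4.

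Of 3 lateral root factors, LBD16 and LBD29, which start lateral roots, were called higher and listed at 0 in the control condition. The share called higher among all tested lines was 22.3%. For tested gene lines listed at 0 in the control condition alone, no share was computed. Of those listed at 0 in the experiment condition, 81.8% were called. PUCHI, an AP2/ERF factor of lateral root primordia, did not pass, with a log2 fold change of 7.58 and q = 0.261 in the authors' deposited table. PLT3, PLT5 and PLT7, the members known for lateral roots, had no call to set beside these.

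**Figure D4:**
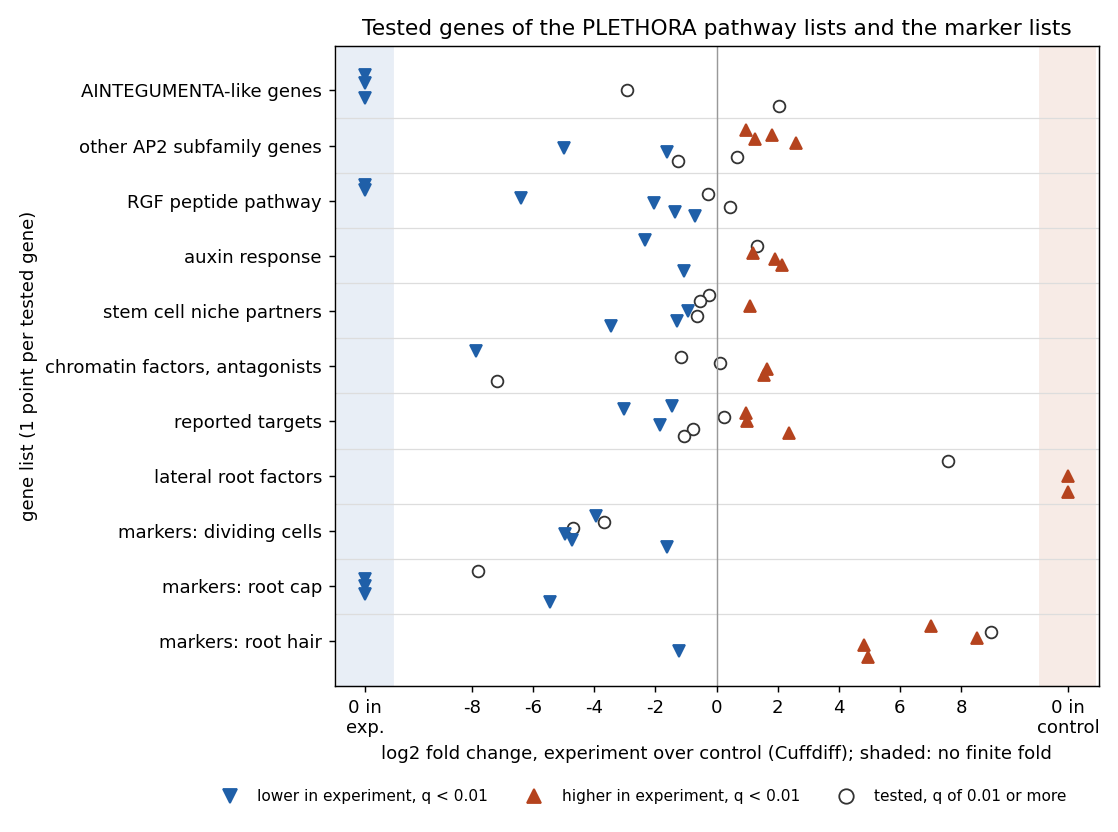
Log2 fold change of experiment over control for each tested gene of the 8 members, the 7 pathway lists and the 3 marker lists, 1 symbol per gene, with genes that have no finite fold in the shaded bands. Called members sit in the left band with RGF2, RGF3 and 3 root cap genes, the RGF pathway has calls on the left side only, and the other pathway lists except the lateral root factors have calls on both sides.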

How the data were processed

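Per the labels, cDNA from root sections was amplified by PCR, tagmented and sequenced as paired reads, without strand marks. The tools named, per the submitters' processing notes, are TopHat, Cufflinks and Cuffdiff with TAIR10 as the build, with versions not given in the sources used here. The authors deposited a gene and an isoform comparison, each pooling the libraries into 2 conditions. Per the file headers, the fold changes are on a log2 scale, experiment over control, and the test statistic is a score from Cuffdiff. Each line also holds a deposited p-value and q-value. Minus infinity appears as a spreadsheet error, read here as listed at 0 in the experiment condition. The 2 columns of condition values per table match no label and were not used, so levels could not be compared and the rule for genes of similar level could not be applied.

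Genes were called at q under 0.01, with no test added. The deposited q equals the Benjamini-Hochberg adjustment over tested lines, to within a relative 4.9e-06 in the gene table. Each group of genes is described by counts and its median. Members and lists were chosen with earlier results of these data known. The genes named are all members, and in each list up to 4 called and 2 uncalled genes with the largest absolute log2, genes at 0 first, and genes called against most of their list. Further list genes are named after their values were seen. The values of 1 list gene are not reported here. Python 3.11.15, pandas 2.3.3 and Biopython 1.88 were used, with BLOSUM62 global alignments (gap scores -11 and -1, free end gaps) of proteins translated from RefSeq coding sequences of TAIR10.1. Coordinates of the files count the start from 0 and are written from 1. The functions for adjustment and shared runs were tested on simulated data.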

Additional observations from a re-analysis of the deposited data

How the results depend on the processing

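A threshold of q under 0.05 in place of 0.01 can add calls but cannot remove one. It added no member in the gene comparison, with 3 called lower and none higher. Calls lower among member isoforms were 2 in place of 1. Counting a member as called where at least 1 of its isoforms passed gave 1 member lower, PLT1, in place of 3. At a q under 0.05 the calls lower were 5 in place of 3 for stem cell niche partners, 2 in place of 1 for chromatin factors and antagonists, and 5 in place of 3 for reported targets. The other 23 of 28 alternatives stayed within 1.5 times of the main count or kept sign and side of the threshold, among them the isoform values of PLT3 (-3.32) and PLT5 (1.40), an alternative chosen after seeing the data. Several of the 23 set 0 calls beside 0 calls. No paired analysis was possible because the files used here give no values per library, and for that reason no replicate was left out. The filters on low values, the pseudocounts and the isoform sums that were planned need levels and were not run. Depth is unknown, so how far it limits the untested members cannot be said.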

Other observations

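The name given to an isoform line and its locus identifier also disagreed for a reported target of BBM. LEC2, an embryo regulator, had no test at gene level and its fold change was entered as 0, yet 2 isoform lines named LEC2 were tested and 1 of them was called lower, at -4.09 in the authors' deposited table, with q = 0.000428. Both lines carried the locus identifier of the neighbouring gene AT1G28290, and the LEC2 line with an identifier of its own was not tested. The first isoform line of PLT2 has the same kind of mismatch, but was not called.

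The gene and isoform comparisons also parted for other genes. CYCB1;2, a mitotic cyclin with 1 isoform line, did not pass at gene level (-3.70, q = 0.0793) and passed at isoform level (-3.49, q = 0.000428) in the authors' deposited table. KNOLLE, a syntaxin of cell division, did the reverse, with -4.98 and q = 0.000177 for the gene against -6.97 and q = 0.297 for its 1 isoform line in the authors' deposited table. WRI1 passed at gene level, while 2 of its 6 isoform lines were tested and, at -5.45 and -5.15, had q = 0.348 and 0.361 in the authors' deposited table. Of the pathway list genes named as called, RGF2, RGI5, MP, IAA14, TCP20, TAA1, SMZ and AP2 also had no isoform line that passed. The others, apart from WRI1 and REV, had at least 1 isoform line called in the direction of the gene. The cause was not tested.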
